A study of Mus musculus with 6 samples.

Results

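The genes described here carry, reduce, oxidize, store or sense iron, and were followed between 2 regions of the embryonic mouse brain. They are Cybrd1, Tfrc, Slc11a2, Slc40a1, Fth1, Trf, Cp, Heph, Aco1 and Ireb2, 10 of 19938 genes measured. Each was taken from probe sets to which the platform annotation gives a single symbol, with the brightest one on average standing for a gene that has several, and each of the 10 had only 1 such probe set. Cybrd1 was chosen by its difference of the third minus the lateral ventricle in these same arrays, and the other members were listed with results of these arrays known. The differences of the 10 genes between the regions, and the adjusted p beside them, are therefore a description of where these genes stand and not independent evidence.

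The samples were neural stem cell cultures from brains of female wild-type C57BL/6 embryos at embryonic day 17.5. Of the 6 arrays, 3 held cells from the third ventricle and 3 cells from the lateral ventricle, the labels naming the subventricular zone for both. All cultures grew in low-attachment dishes in DMEM/Neurobasal medium to which the supplements N2 and B27 and the growth factors EGF and FGF (each 20 ng/ml) were added. Between 500 pg and 50 ng of total RNA was amplified for each array. The replicates are labelled biological, and the study set out to use independent females, but which animal an array comes from is not stated. The p-values below therefore describe the variation among these cultures, and 3 arrays a region limit their precision. Each array measured the RNA of a whole culture, so fewer cells of a type and less RNA per cell cannot be told apart.

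Iron travels in extracellular fluid as ferric iron bound to transferrin, enters cells with the transferrin receptor, is reduced to ferrous iron, crosses the endosomal membrane and is then used, stored in ferritin or exported through ferroportin. Multicopper oxidases return exported iron to the ferric state, in which transferrin binds it. Inside the cell, iron regulatory proteins bind stem-loops in several of these transcripts when iron is scarce, which stabilizes the receptor transcript and holds back ferritin translation. In the brain, glia are known sources of transferrin and ceruloplasmin.

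Values are log2 expression per probe set, so a difference of 1 is a 2-fold change. The 95th percentile of 1027 olfactory receptor genes on each array, 5.04 to 5.16, served as a gauge of background. Of 9 stem and radial glia markers measured, 8 lay above it in all 6 arrays, with the stem cell filament Nes at 7.51 to 7.67 in the third and 6.47 to 7.70 in the lateral ventricle cultures. Lateral ventricle array 2 stood apart from lateral arrays 1 and 3. Its correlation over all genes was 0.991 to 0.992 with arrays of the third ventricle, but 0.980 and 0.982 with lateral arrays 1 and 3. Over 19 cell cycle genes, the median deviation from each gene's own mean was 0.56, 0.54 and 0.61 in the third ventricle arrays 1, 2 and 3, against -1.36, 0.57 and -0.88 in the lateral ventricle arrays 1, 2 and 3. Results are therefore also given without lateral array 2.

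The reductase Cybrd1, the carrier Trf and the oxidase Cp stood more than 2-fold higher in the third ventricle cultures. The receptor Tfrc differed by 0.36 on the log2 scale. The ferrous iron transporter, the ferritin heavy chain Fth1 and both iron regulatory proteins differed by 0.13 or less in either direction. A difference of at least 1 log2 unit toward the third ventricle was found in 0.802% of all genes. In the limma fit over all genes, 1 of the 10 members, Cybrd1, was called at an adjusted p below 0.05, with 0.231% of all genes called. Groups did not overlap for 4 members, Cybrd1, Trf, Cp and Aco1, all higher in the third ventricle cultures, a pattern that 7.77% of all genes had. Since the members were chosen with this comparison known, nothing is read from these shares. The median difference over the 10 members was 0.11, and -0.02 over all genes.

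**Figure D1:**
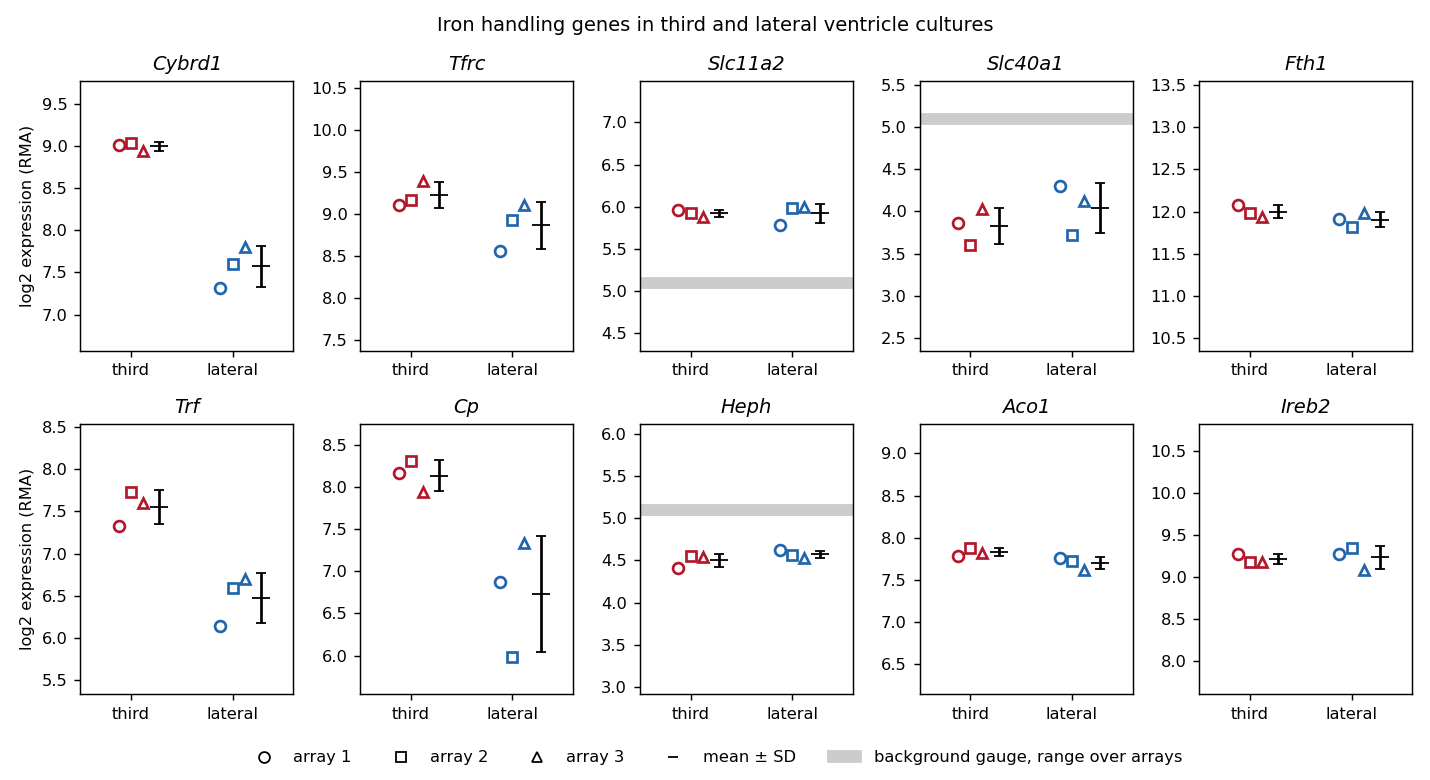
Log2 expression of the 10 genes on each array, the third ventricle cultures in red and the lateral ventricle cultures in blue, with the mean ± SD of 3 arrays beside them. Each panel spans the same number of log2 units, and the grey band, seen only in the panels near it, is the background gauge (5.04 to 5.16). Cybrd1, Trf and Cp separate between the regions, and Slc40a1 and Heph lie below the band.

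Cybrd1 encodes duodenal cytochrome b, a membrane ferric reductase that takes electrons from ascorbate. Its log2 value was 9.01, 9.03 and 8.94 in the third ventricle arrays 1, 2 and 3, against 7.31, 7.60 and 7.80 in the lateral ventricle arrays 1, 2 and 3. Every array of the third ventricle lay above every lateral one, with a gap of 1.13 between the groups, against ranges of 0.10 within the third and 0.49 within the lateral ventricle arrays. The means were 8.99 ± 0.05 in the third and 7.57 ± 0.25 in the lateral ventricle cultures (SD, n = 3 each). The difference was 1.42 on the log2 scale (SE 0.13, 95% interval 1.12 to 1.73), a 2.68-fold higher level in the third ventricle cultures (limma, adjusted p = 0.00920). In size it ranked 22 among the differences of 19938 genes, counted from the highest. It was 1.44 without lateral array 2 (limma, adjusted p = 0.00101). Leaving out the third ventricle array 1, 2 or 3 gave differences of 1.41, 1.40 and 1.45 with adjusted p of 0.0702, 0.0938 and 0.0800 in limma, so the call needed all 3 of these arrays. Over all genes these fits called 7, 4 and 4, against 46 in the main fit. The third ventricle mean exceeded lateral arrays 1, 2 and 3 by 1.69, 1.39 and 1.19.

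Upstream sequence is shown for the members that stood over 2-fold higher in the third ventricle cultures and have an entry in the RefSeq promoter table (GRCm38.p6), which lists 6 of the 10 genes in 9 windows. The 250 bases before the start of Cybrd1 (chr2:71117804-71118053, plus strand) and before the first listed start of Cp (chr3:19956804-19957053, plus strand) follow 5′ to 3′, with capitals on GCGTG, a form of the hypoxia response core.
Cybrd1: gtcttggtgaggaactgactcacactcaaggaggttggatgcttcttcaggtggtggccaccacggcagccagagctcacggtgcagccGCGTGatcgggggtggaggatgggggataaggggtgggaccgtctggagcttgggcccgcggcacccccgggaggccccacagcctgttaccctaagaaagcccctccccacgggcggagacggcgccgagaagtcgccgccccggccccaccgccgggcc
Cp: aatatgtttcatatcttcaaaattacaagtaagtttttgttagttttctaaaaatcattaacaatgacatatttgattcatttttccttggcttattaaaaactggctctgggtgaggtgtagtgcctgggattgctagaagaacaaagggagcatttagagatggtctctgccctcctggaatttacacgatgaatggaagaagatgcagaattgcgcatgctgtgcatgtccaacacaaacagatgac
The core was searched as ACGTG and GCGTG on both strands, GCGTG having been added after the data were seen. GCGTG occurred 1 time in the Cybrd1 window, at position -161 counted from the start, and ACGTG occurred 0 times. Neither form occurred in the windows of Cp, Aco1 or Ireb2. GCGTG also occurred 2 times in each window of Tfrc and 1 time in a window of Fth1, at position -50. It was therefore not particular to Cybrd1 among the members. Of 32851 windows of 300 bases in the table, 19.6% held ACGTG and 32.4% held GCGTG. A match describes letters and not a bound site.

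Trf encodes transferrin, the extracellular carrier of ferric iron. It measured 7.33, 7.73 and 7.60 in the third ventricle arrays 1, 2 and 3, against 6.14, 6.59 and 6.69 in the lateral ventricle arrays 1, 2 and 3. The groups did not overlap, and lateral array 1 was the lowest of all. Means were 7.55 ± 0.20 in the third and 6.47 ± 0.29 in the lateral ventricle cultures (SD, n = 3 each). The difference of 1.08 (SE 0.17, 95% interval 0.69 to 1.46), or 2.11-fold, did not pass over all genes (limma, adjusted p = 0.0634). Without lateral array 2 it was 1.14 and passed (limma, adjusted p = 0.00760), in a fit that called 8.25% of all genes. With the replicate number as a block it was 1.08 (SE 0.10) and passed too (limma, adjusted p = 0.0255). Lateral array 2 by itself lay 0.96 below the third ventricle mean.

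Cp encodes ceruloplasmin, a copper-containing ferroxidase that oxidizes iron leaving the cell. It measured 8.16, 8.31 and 7.94 in the third ventricle arrays 1, 2 and 3, against 6.88, 5.98 and 7.34 in the lateral ventricle arrays 1, 2 and 3. The groups did not overlap, but the lateral arrays were spread over 1.35 log2 units, against 0.36 for the third ventricle arrays. The means were 8.14 ± 0.18 in the third and 6.73 ± 0.69 in the lateral ventricle cultures (SD, n = 3 each). The difference of 1.40 (SE 0.30, 95% interval 0.71 to 2.10), or 2.65-fold, ranked 23 among all genes and did not pass (limma, adjusted p = 0.169). Array 2 was the lowest lateral array for Cp, and without it the difference was 1.03 and passed (limma, adjusted p = 0.00723). Without lateral array 3 it was 1.71 (limma, adjusted p = 0.106).

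For Cybrd1 and Trf, lateral array 2 lay with the other lateral arrays, and for Cp it lay below both of them. For all 3 genes it was nearer the mean of lateral arrays 1 and 3 than the third ventricle mean. The cell cycle genes of lateral array 2 lay at the level of the third ventricle arrays. The members were chosen with this comparison known, so where lateral array 2 lies is only a description. Marker lists of other cell types were read beside these differences. Of 9 oligodendrocyte markers measured, 5 lay above the background gauge in all 6 arrays and 3, among them Mobp, lay at or below it in all 6. The summed log2 level of the oligodendrocyte list was 46.7 to 47.1 in the third and 47.8 to 50.1 in the lateral ventricle cultures, with 7 of the 9 markers lower in the third ventricle cultures. Without Ugt8a, which had the largest difference, the sums overlapped, at 40.6 to 41.2 in the third and 41.2 to 42.7 in the lateral cultures. The list's median deviation did not overlap, at -0.13 to -0.04 in the third and 0.06 to 0.19 in the lateral ventricle cultures. Of 10 astrocyte markers, 9 lay above the gauge in all 6 arrays and Gfap at or below it in all 6. The astrocyte list summed to 71.1 to 73.4 in the third and 69.7 to 78.5 in the lateral ventricle cultures. Of its differences, 4 were positive and 6 negative. Without overlap, Sparcl1 was higher in the third ventricle cultures, at 0.94, and Aldh1l1 lower, at -0.43 (limma, adjusted p = 0.202 and 0.297). Without Apoe, which had the largest difference at -1.35, the sums were 63.1 to 64.6 in the third and 61.4 to 67.3 in the lateral cultures. The choroid plexus list summed to 45.1 to 45.5 in the third and 44.2 to 45.5 in the lateral ventricle cultures, with 3 of 9 measured markers above the gauge in all 6 arrays and 4 at or below it in all 6. Ttr, the defining transcript of choroid plexus epithelium, lay below the gauge. It measured 3.42 to 3.55 in the third and 3.36 to 3.71 in the lateral ventricle cultures. Sostdc1, which had the list's largest difference, measured 5.35, 5.22 and 5.45 in the third ventricle arrays 1, 2 and 3. It measured 4.70, 4.62 and 4.84, below the gauge, in the lateral ventricle arrays 1, 2 and 3 (limma, adjusted p = 0.0863). Of the 9 choroid plexus differences, 3 were positive and 6 negative. Without Sostdc1 the sums were 39.6 to 40.1 in the third and 39.5 to 40.8 in the lateral ventricle cultures. The tanycyte list, for glia that line the third ventricle, summed to 49.1 to 50.03 in the third and 45.5 to 48.7 in the lateral ventricle cultures. Of its 9 measured markers, 5 differences were negative and 4 positive, that of Lhx2 negative without overlap, and the defining regulator Rax was among the 3 at or below the gauge in all 6 arrays. Without Fndc3c1 the tanycyte sums overlapped, at 41.7 to 42.6 in the third and 40.7 to 42.8 in the lateral ventricle cultures. Fndc3c1, the 1 marker called in that list (limma, adjusted p = 0.0255), measured 7.37, 7.44 and 7.44 in the third ventricle arrays 1, 2 and 3, against 4.82, 5.89 and 4.85 in the lateral ventricle arrays 1, 2 and 3, of which arrays 1 and 3 lay below the gauge. The ependymal list summed to 49.9 to 50.9 in the third and 48.2 to 49.5 in the lateral ventricle cultures, with 7 of 10 differences positive and 3 negative, and 4 markers at or below the gauge in all 6 arrays. Without Dynlrb2 the ependymal sums were 43.4 to 44.1 in the third and 42.8 to 43.3 in the lateral ventricle cultures, and the list's median deviation overlapped between the regions. Mcidas, a regulator of multiciliated cells, was lower in the third ventricle cultures without overlap, at -0.20. The neuron list summed to 65.5 to 66.8 in the third and 67.5 to 68.4 in the lateral ventricle cultures. Without Dcx these sums overlapped, at 60.5 to 61.0 in the third and 60.5 to 61.6 in the lateral ventricle cultures. The neuron list's median deviation did not overlap, at -0.11 to -0.04 in the third and 0.04 to 0.10 in the lateral ventricle cultures. Of its 10 markers, 7 were lower in the third ventricle cultures and 3 higher. The part of these lists, or of the cell cycle genes, in the differences of Cybrd1, Trf and Cp was not tested.

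**Figure D2:**
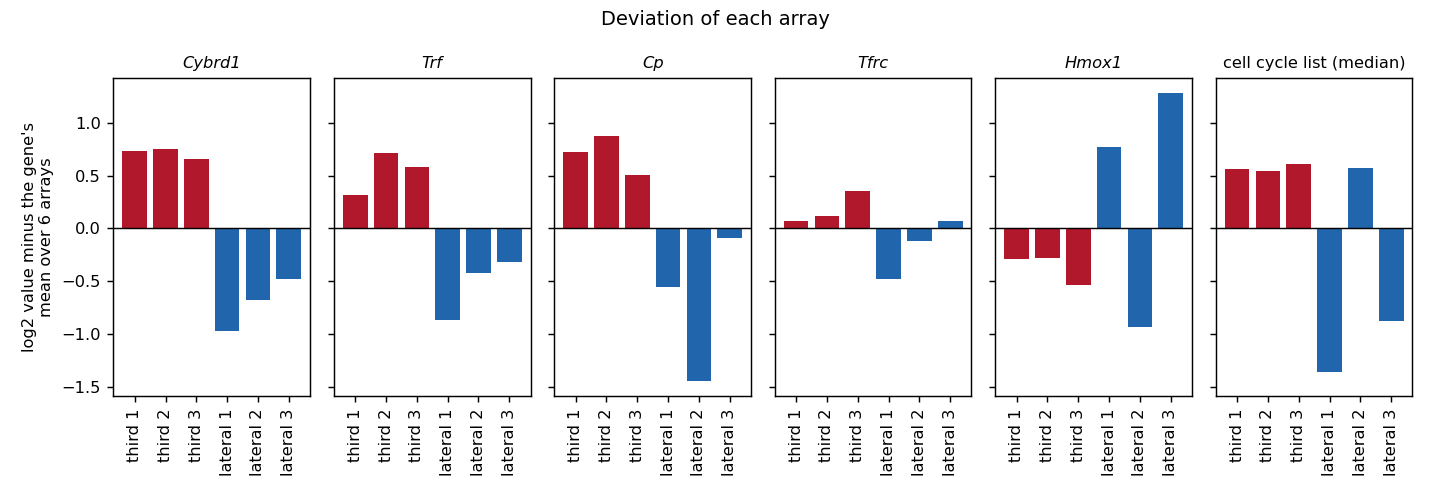
Bars give the log2 value of each array minus the gene's mean over the 6 arrays for Cybrd1, Trf, Cp, Tfrc and Hmox1, and the median of that deviation over 19 cell cycle genes, with the third ventricle arrays in red and the lateral ventricle arrays in blue. For Cybrd1, Trf and Cp lateral array 2 lies on the lateral side. In the cell cycle list it lies at 0.57, beside the third ventricle arrays. The part of the cell cycle genes in the differences of Cybrd1, Trf and Cp was not tested.

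Tfrc encodes the transferrin receptor, through which cells take up transferrin-bound iron and which dividing cells are known to make in quantity. It measured 9.11, 9.17 and 9.39 in the third ventricle arrays 1, 2 and 3, against 8.56, 8.93 and 9.11 in the lateral ventricle arrays 1, 2 and 3. The groups met at the edge, with lateral array 3 at 9.1129 and the third ventricle array 1 at 9.1116. Means were 9.22 ± 0.15 in the third and 8.87 ± 0.28 in the lateral ventricle cultures (SD, n = 3 each), a difference of 0.36 (SE 0.15, 95% interval 0.0022 to 0.71) that did not pass (limma, adjusted p = 0.393). Without lateral array 1, the lowest for Tfrc and for the cell cycle list, it was 0.20 (limma, adjusted p = 0.650). Tfrc was highest among the lateral arrays in array 3 and the cell cycle list in array 2, and in limma 0 of the 19 cell cycle genes passed, while 16 had an unadjusted p below 0.05. The part of the cell cycle genes in the Tfrc difference was not tested.

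A listed start of Tfrc has the hypoxia response core ACGTG across the start itself. The 30 bases around it (GRCm38.p6, chr16:32608882-32608911, plus strand) are shown because Tfrc was the only one of the 6 listed members with this form in a window, and capitals mark the core.
Tfrc: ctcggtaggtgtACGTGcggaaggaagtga
The letters CAGTG, which form part of the loop of an iron-responsive element, were searched on the sense strand in the 50 bases after each start. They occurred in 0 of the 9 windows of the members and in 7.20% of all windows, which says nothing of elements farther into these transcripts.

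Slc11a2 encodes DMT1, the ferrous iron transporter that acts after the reductase step. It measured 5.96, 5.93 and 5.88 in the third ventricle arrays 1, 2 and 3, against 5.79, 5.98 and 6.00 in the lateral ventricle arrays 1, 2 and 3. The third ventricle arrays lay within the range of the lateral ones. The difference was 0.00056 (limma, adjusted p = 0.999), with a 95% interval of -0.22 to 0.22 that allows small differences in either direction.

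Fth1 encodes the heavy chain of ferritin, which oxidizes and stores iron. Ferritin genes have processed copies in the genome, so what the probe sets of Fth1 and Ftl1 read in all is uncertain. It measured 12.08, 11.99 and 11.93 in the third ventricle arrays 1, 2 and 3, against 11.91, 11.82 and 11.99 in the lateral ventricle arrays 1, 2 and 3. The groups overlapped, with a difference of 0.09 (95% interval -0.12 to 0.31, limma, adjusted p = 0.736).

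Neither iron regulatory protein passed. Aco1, a cytosolic aconitase when iron is plentiful and the RNA-binding protein IRP1 when it is scarce, measured 7.78, 7.88 and 7.82 in the third ventricle arrays 1, 2 and 3, against 7.76, 7.73 and 7.62 in the lateral ventricle arrays 1, 2 and 3. Its groups did not overlap, but the nearest arrays were 0.021 apart, and the difference was 0.13 (95% interval -0.08 to 0.33, limma, adjusted p = 0.616). Ireb2, which encodes IRP2, measured 9.28, 9.18 and 9.18 in the third ventricle arrays 1, 2 and 3, against 9.28, 9.34 and 9.08 in the lateral ventricle arrays 1, 2 and 3. These overlapped, with a difference of -0.02 (95% interval -0.26 to 0.21, limma, adjusted p = 0.948).

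The exporter and a membrane oxidase lay below the background gauge, so their signal cannot be told from background. Slc40a1, which encodes ferroportin, measured 3.86, 3.60 and 4.02 in the third ventricle arrays 1, 2 and 3, against 4.30, 3.72 and 4.12 in the lateral ventricle arrays 1, 2 and 3. Heph, which encodes hephaestin, a membrane ferroxidase related to Cp, measured 4.41, 4.55 and 4.54 in the third ventricle arrays 1, 2 and 3, against 4.62, 4.57 and 4.53 in the lateral ventricle arrays 1, 2 and 3. On every array both genes were dimmer than the gauge of background, so no fold is given for them. The list of microglia and macrophages, cells in which ferroportin is abundant, had 6 of its 10 markers at or below the gauge in all 6 arrays and summed to 45.3 to 47.2 in the third and 46.3 to 47.1 in the lateral ventricle cultures.

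**Figure D3:**
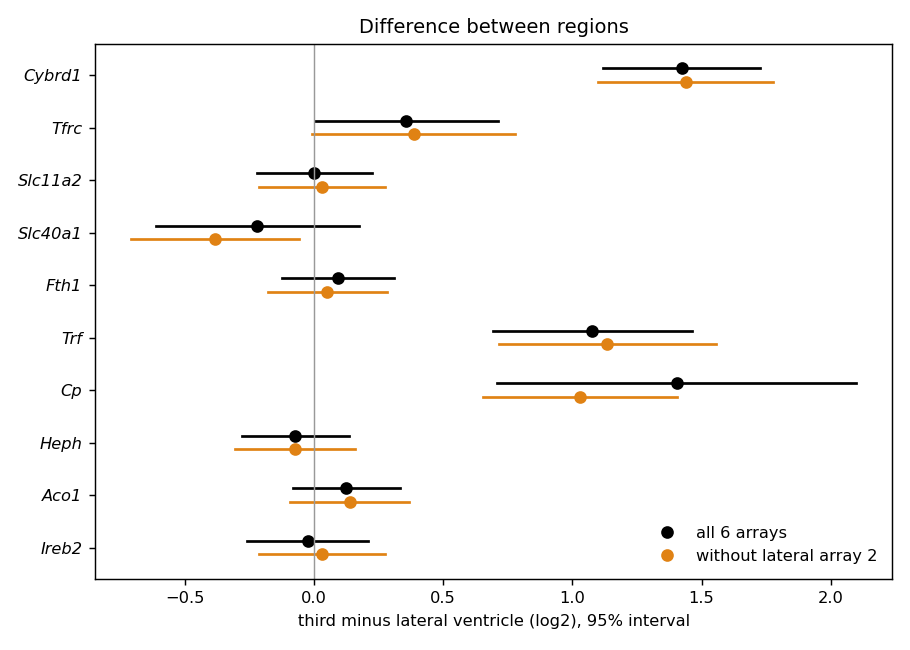
Points give the difference of the third minus the lateral ventricle of each gene on the log2 scale and lines its 95% interval, over all 6 arrays in black and without lateral array 2 in orange. The intervals of Cybrd1, Trf and Cp lie above 0 in both fits, and those of Slc11a2, Fth1, Heph, Aco1 and Ireb2 span 0 in both.

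The spread within the groups was unequal. In 9 of the 10 genes the lateral arrays covered a wider range than the third ventricle arrays, as they did in 66.6% of all genes. Cp had the widest lateral range of the members, at 1.35, and Heph was the exception, with a range of 0.14 in the third and 0.09 in the lateral ventricle cultures.

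The genes most like Cybrd1 in pattern over the 6 arrays were sought among 11780 others above the gauge in every array of at least 1 region. They were Caskin1 (Pearson r = 0.999), Chl1, Nrk, Mrpl55 and Rgs7bp (r = 0.991). Their differences ranged from 0.08 for Caskin1 to 2.53 for the adhesion molecule Chl1, since r does not depend on the size of a difference. Nrk entered the search through the third ventricle arrays alone. Its lateral values of 4.65, 4.77 and 4.91 lay below the gauge, so its likeness follows partly from the filter. Trf ranked 34 (r = 0.971) and Cp 381 (r = 0.873). For Tfrc the closest were Mcm8 (r = 0.998), Alad, Slc43a1, Actn4 and Fam102b (r = 0.988). Alad encodes an enzyme of heme synthesis and Mcm8 a helicase of the MCM family. These r values share the same 6 arrays and the split between the regions, and carry no p.

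Around these members, 77 of 82 other iron genes in 7 lists were measured. In limma, 0 of the 77 passed over all genes, against 0.231% of all genes, with the lowest adjusted p at 0.0765 for Lrp1, and 9 had an unadjusted p below 0.05, against 12.6% of all genes. The difference was positive for 33 of them, and the median was -0.04, against -0.02 over all genes. Groups did not overlap in 14 (18.2%), against 17.0% of all genes, and of the 14 the third ventricle was higher in 4 and lower in 10. At or below the gauge in all 6 arrays were 15.

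Among the other ferric reductases and their relatives, 0 of 10 passed, with 1 at an unadjusted p below 0.05 in limma, and the median difference was 0.05. Cyb561d2, of the same cytochrome family as Cybrd1, measured 6.37, 6.32 and 6.44 in the third ventricle arrays 1, 2 and 3, against 6.54, 6.27 and 6.21 in the lateral ventricle arrays 1, 2 and 3. Its groups overlapped, with a difference of 0.04. Of the same family, Cyb561a3 differed by 0.16 and Cyb561d1 by 0.07, both with overlap. The 1 gene at an unadjusted p below 0.05 in limma was Cyb561, whose values lay below the gauge in all 6 arrays. Frrs1, a ferric-chelate reductase, differed by -0.21 and Frrs1l by -0.12. In this list 6 of 10 differences were positive.

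Among the uptake receptors and carriers, 0 of 12 passed, with 2 at an unadjusted p below 0.05 in limma, and 7 lay at or below the gauge in all 6 arrays. Lrp1, an endocytic receptor that takes up heme bound to hemopexin among many ligands, measured 6.10, 5.83 and 6.10 in the third ventricle arrays 1, 2 and 3, against 6.82, 6.58 and 6.83 in the lateral ventricle arrays 1, 2 and 3. The groups did not overlap, and the difference was -0.73 (SE 0.12, limma, adjusted p = 0.0765). Slc22a17, a receptor for lipocalin 2, differed by -0.15.

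Of the storage, chaperone and ferritin turnover genes, 0 of 6 passed, 0 had an unadjusted p below 0.05 in limma and 0 had a positive difference, with a median of -0.10. Ftl1, the ferritin light chain, measured 9.64, 9.56 and 9.25 in the third ventricle arrays 1, 2 and 3, against 9.94, 9.27 and 10.20 in the lateral ventricle arrays 1, 2 and 3. The groups overlapped through lateral array 2, and the difference was -0.32 (limma, adjusted p = 0.610). Pcbp2, an RNA-binding protein that also delivers iron as a chaperone, differed by -0.07.

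In the export and hepcidin list 0 of 8 passed, 1 with an unadjusted p below 0.05 in limma, with a median of -0.06. Neo1, which encodes neogenin, a co-receptor in hepcidin control in the liver and a guidance receptor in the nervous system, differed by -0.53 (limma, adjusted p = 0.339) and Hamp2, a hepcidin gene, by -0.10. Hamp2 is nearly identical to Hamp, so which of them its probe set reads is uncertain. Of 7 measured genes of iron sensing, 0 passed and 2 had an unadjusted p below 0.05 in limma. Skp1 and Cul1, parts of the ubiquitin ligase that degrades IRP2, differed by 0.13 with overlap and 0.18 without overlap (limma, adjusted p = 0.734 and 0.497). Fbxl5, of the same ligase, went the other way, at -0.25 without overlap (limma, adjusted p = 0.347). Epas1, which encodes HIF-2alpha and has an iron-responsive element, differed by -0.36, also without overlap (limma, adjusted p = 0.351).

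Of 15 measured genes of mitochondrial iron and iron-sulfur clusters, 0 passed, 1 had an unadjusted p below 0.05 in limma and the median was -0.04. Hspa9, the mitochondrial chaperone mortalin, differed by -0.47, Lyrm4, a partner of the cysteine desulfurase, by -0.01 and Hscb, a co-chaperone of cluster transfer, by -0.54. In heme synthesis, transport and breakdown 0 of 19 passed and 2 had an unadjusted p below 0.05 in limma, with a median of -0.01. Hmox1, the inducible heme oxygenase that frees iron from heme, measured 7.76, 7.77 and 7.52 in the third ventricle arrays 1, 2 and 3, against 8.82, 7.12 and 9.34 in the lateral ventricle arrays 1, 2 and 3. Lateral arrays 1 and 3 lay above every array of the third ventricle and lateral array 2 below all of them. The difference of -0.74 had an SE of 0.48 (limma, adjusted p = 0.575). Pgrmc1, a heme-binding membrane protein, differed by 0.0016.

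**Figure D4:**
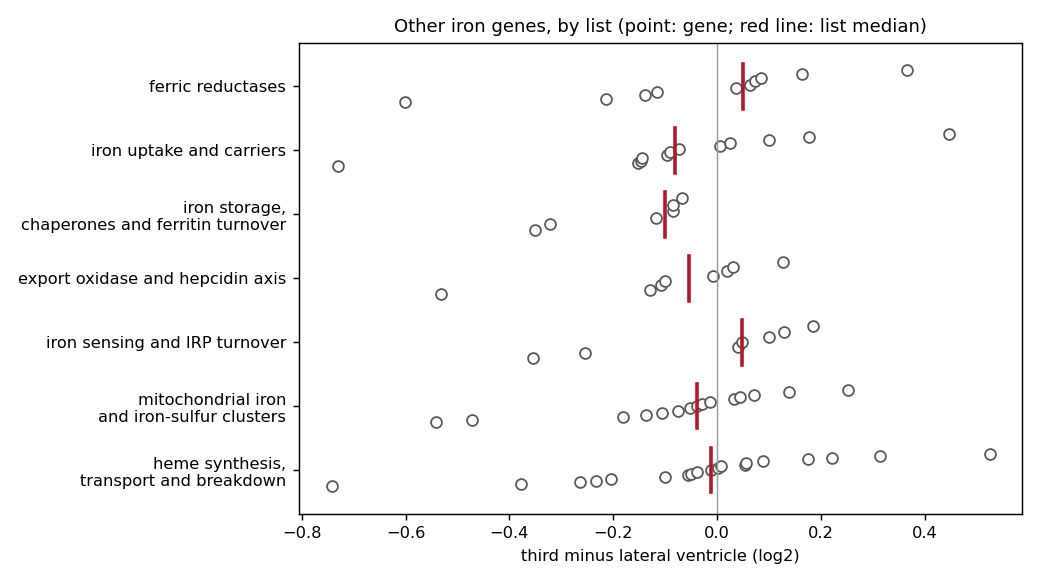
Each point is the difference of the third minus the lateral ventricle of a gene on the log2 scale, for 77 other iron genes in 7 lists, and the red line is the median of its list. The medians lie between -0.10 and 0.05, and Hmox1 (-0.74) and Lrp1 (-0.73) have the lowest values.

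Without lateral array 2, 11 of the 77 (14.3%) passed, where 8.25% of all genes passed. Of these, 2 were higher in the third ventricle cultures, against 4.37% of all genes, and 9 were lower, against 3.88% of all genes. The lower ones were Hmox1 at -1.40, Lrp1 at -0.81, Hspa9 at -0.79, Neo1 at -0.76, Hscb at -0.75, Cpox at -0.73, Ftl1 at -0.59, Epas1 at -0.50 and Steap1, whose 3 values in the third ventricle cultures were all dimmer than the gauge, so that no difference is given. Cpox is an enzyme of heme synthesis and Steap1 a member of the STEAP metalloreductase family. The higher ones were Blvra, a biliverdin reductase, at 0.76 and Glrx5, a glutaredoxin of cluster assembly, at 0.38. In 10 of the 11, all but Lrp1, lateral array 2 lay nearer the third ventricle mean than that of lateral arrays 1 and 3, so these differences are not shared by all lateral arrays. Among the members, Cybrd1, Trf and Cp passed in this fit, 3 of 10 and all higher. Lateral array 2 was nearer the third ventricle for 0 of them. Cybrd1 was chosen by its difference in these same arrays, and the other members were listed with results known. The 11 passed here and not in the main fit. Both choices bear on where lateral array 2 lies, so nothing is read from setting these counts side by side.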

How the data were processed

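Per the submitters' processing notes, the authors normalized the 6 arrays by RMA with Affymetrix Expression Console 1.1, and the deposited table holds the resulting log2 values of 35556 probe sets. RMA subtracts background, gives all arrays 1 distribution and summarizes probes, which compresses differences of dim probe sets. The sources used here give no further settings and no genome build. The platform annotation gave 1 symbol to 21789 probe sets and several to 1621, and left 12146 unnamed.

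Differences of the third minus the lateral ventricle were fitted over 19938 genes in limma 3.58.1 (lmFit, eBayes; R 4.3.3). All p-values were adjusted together by Benjamini and Hochberg's method and called at 0.05. The steps were tested on simulated data. With 3 arrays a region, the smallest two-sided p of an exact permutation test is 0.1, so none was used for single genes. The members and lists were chosen with earlier results of these data known. Other iron genes are named by a rule: per list, those that pass, or else the 2 with the highest mean over the arrays and the 1 with the largest difference among those above the gauge in all arrays of a region. The 5 genes closest to Cybrd1 and to Tfrc in Pearson r are named as well. Genes named for passing without lateral array 2, Fbxl5, Hamp, Cyb561, Cyb561a3, Cyb561d1 and the marker genes named were picked after their values were seen.

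Promoter sequences come from RefSeq (GRCm38.p6). As alternatives, another probe set rule, another normalization, other variance settings, array weights, removal of the dimmest 40% of genes, a replicate block and the loss of each array were tried.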

Additional observations from a re-analysis of the deposited data

How the results depend on the processing

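The number of genes called over all genes was 46, and 158 with array weights. Leaving out 1 array in turn gave 4 to 1644 calls, the highest without lateral array 2. Among the other 77 iron genes 0 were called, 1 with array weights (Lrp1, -0.77, adjusted p = 0.0328 in limma), and 0 to 11 when 1 array was left out. The Cybrd1 difference ranged from 1.29 to 1.54 over 13 alternatives and passed in 10 of them, all but those that left out an array of the third ventricle. Trf ranged from 0.91 to 1.19 and passed in 3, array weights (adjusted p = 0.0306 in limma), the replicate block and the fit without lateral array 2. Cp ranged from 1.03 to 1.71 and passed in 1, without lateral array 2. Slc11a2 turned in sign with array weights (-0.003) and ranged from -0.067 to 0.038 when 1 array was left out. Ireb2 turned with array weights (0.008) and ranged from -0.100 to 0.030. The cause of these changes was not tested. Tfrc passed in 0 of 13.

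The replicate numbers of the titles are shared by the regions. Same-numbered arrays deviated together with correlations of 0.24, 0.111 and 0.0679, and each array correlated best with its own number. Whether a number marks 1 animal is not stated. The main fit therefore took no pairs, which does not exclude that the arrays were paired. With the replicate block 57 genes were called, with Trf at 1.08 (adjusted p = 0.0255 in limma) and Cybrd1 at 1.42 (adjusted p = 0.0235 in limma). The number of arrays and the distance of dim probe sets from background, as for Slc40a1 and Heph, limit what can be seen.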
